A study of Mus musculus with 9 samples.

Results

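Presynaptic vesicle and SNARE genes were followed in RNA of dissected nigral tissue. The set holds 9 genes, Syn1, Syn2, Syp, Syt1, Snap25, Stx1a, Vamp2, Cplx1 and Sv2a, taken by their symbols from the 55450 genes of the GENCODE M21 mouse annotation on which reads were counted. All 9 were among the 20892 genes with enough reads to be tested. The study asked how the substantia nigra responds when a transgene is switched on in microglia or in dopaminergic neurons, and 9 libraries in 3 groups of 3 carry the bulk RNA data. The libraries labelled CTR came from CX3CR1-CreERT2 mice given a control vector, which the labels call GFP and the paper describes as destabilized GFP. The libraries labelled CX3 came from CX3CR1-CreERT2 mice and those labelled DAT from DAT-Cre mice, in both cases infected with a Synuclein-expressing vector. Both vectors were lentiviral, were delivered to the nigra at 8 weeks of age (the methods give 9 weeks for the mice) and were designed to be switched on by Cre, which acts in microglia in the first line once tamoxifen is given (75 mg/kg on 4 days) and in dopaminergic neurons in the second. The study describes tamoxifen for the CreERT2 line. Tissue was taken 5 weeks after the vector. DAT and CTR therefore differ in Cre line, drug and vector together, and these cannot be told apart. Nothing states that the libraries of a group came from separate animals, so every p below measures the spread between libraries, which may be technical.

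A synapse releases transmitter when vesicles, filled by their transporters and tethered by synapsins, are joined to the plasma membrane by SNARE proteins. The vesicle SNARE is synaptobrevin (Vamp2) and the membrane SNAREs are syntaxin (Stx1a) and SNAP-25 (Snap25). Synaptotagmin (Syt1) senses the calcium that triggers fusion, complexin (Cplx1) binds the assembled SNAREs and tunes release, and synaptophysin (Syp) and SV2A (Sv2a) are abundant proteins of the vesicle membrane. All neurons that release transmitter from such vesicles use genes of this set or their close relatives, so in a tissue block their RNA comes from local cell bodies of many kinds and not from dopaminergic neurons alone.

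The groups were first checked against marker genes, because several markers went against what the labels name. Summed CPM (read counts divided by the scaled size of the library, so that libraries of different depth can be compared) of 9 B and plasma cell markers lay at 2252 to 2313 in the libraries labelled CTR, 350 to 376 in CX3 and 80.6 to 93.6 in DAT. The 16 microglia markers summed to 2105 to 2127, 1495 to 1551 and 971 to 1073 CPM and the 12 T cell markers to 88.6 to 92.1, 71.6 to 77.3 and 24 to 27.7 CPM in the same order, so the control-vector libraries held the most immune RNA. Gfap, the astrocyte filament gene, stood at 2369 ± 30.8 CPM in CTR, 1181 ± 17.4 in CX3 and 1065 ± 19.9 in DAT (SD, n = 3). Cx3cr1, the microglial receptor gene after which the first Cre line is named, read 102 ± 0.9, 44.6 ± 0.894 and 83.4 ± 4.31 CPM (SD, n = 3). The transcript of the vector was not analysed here. By the allele names in the methods, Cre lies in Cx3cr1 in the first line and in Slc6a3 in the second. CTR and CX3 share the first line by their labels but differed in Cx3cr1, and the cause was not tested. The groups are named by their labels throughout. Slc6a3, the dopamine transporter, was present in every group at 130 ± 2.58, 195 ± 2.74 and 91.1 ± 2.52 CPM in CTR, CX3 and DAT, and Th, the enzyme of dopamine synthesis, at 81.6 ± 2.16, 101 ± 2.5 and 68.4 ± 0.501 CPM (SD, n = 3).

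Markers of tissue next to the nigra also moved with the groups. The 10 choroid plexus markers summed to 63.9 to 65.3 CPM in CTR, 1526 to 1633 in CX3 and 930 to 1097 in DAT, and the 9 pituitary markers to 61.8 to 64.5, 6.12 to 6.47 and 19.2 to 23.9, with Fshb at 0 counts in CX3 and with Fshb and Prl at 0 in DAT. The 10 hindbrain and pons markers summed to 5.83 to 5.99 CPM in CTR, 7.06 to 8.54 in CX3 and 30.9 to 37.4 in DAT. The 13 cortex and hippocampus markers summed to 415 to 424, 480 to 519 and 653 to 790 CPM and the 12 cerebellar granule lineage markers to 314 to 317, 335 to 337 and 398 to 411. Both of these sums were highest in DAT, as were the vesicle genes, and a link between them was not tested. The 8 thalamus markers summed to 1021 to 1027 CPM in CTR, 1142 to 1198 in CX3 and 1131 to 1164 in DAT. In CX3 against CTR the sums hide genes that moved both ways. By the edgeR test below, 3 cortex and hippocampus markers were called higher and 3 lower there. The cerebellar list had 5 higher and 4 lower, and the hindbrain and pons list 1 and 1. In the DAT libraries 5.45% to 5.58% of reads fell outside genes, against 8.36% to 10% elsewhere, and Rn7sk, a small nuclear RNA that lacks a poly(A) tail and was picked after its values were seen, read 26.3 to 29.3 CPM against 1.04 to 2.97. The part of these differences in the results below was not tested. Reads counted on genes numbered 21592817 to 39475428 per library, at which a floor of 3 counts equals 0.0779 to 0.151 CPM and covers counting error only. One library, DAT B, stood apart from DAT A and DAT C, with a mean squared difference of up to 18.1 times that of read sampling against 2.34 between the latter. To a lesser degree CX3 A stood apart, at 4.96 and 6.88 times from CX3 B and CX3 C against 2.66 between those. The CTR libraries differed by 1.48 to 1.86 times that of read sampling.

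Syp and Sv2a, whose products sit in the vesicle membrane, came out lower in CX3 and higher in DAT than in CTR. Syp (ENSMUSG00000031144.15, GRCm38 chrX:7638471-7653256, plus strand) read 390, 402 and 389 CPM in CTR A, B and C, 322, 337 and 326 in CX3, and 690, 735 and 668 in DAT. Sv2a (ENSMUSG00000038486.9, chr3:96181151-96195521, plus strand) read 441, 449 and 440 CPM in CTR, 364, 376 and 359 in CX3, and 817, 803 and 799 in DAT. For both genes every CX3 library lay below every CTR library and every DAT library above them. Against CTR, Syp in CX3 changed by a log2 fold change of -0.26 ± 0.043 (SE, edgeR adjusted p = 0.00034) and Sv2a by -0.28 ± 0.037 (edgeR adjusted p = 5.7e-05). These falls are folds of 0.833 and 0.826, and neither passed a stricter edgeR test that asks for a change beyond 1.2-fold (glmTreat adjusted p = 0.783 and 0.611). In DAT the log2 fold changes were 0.83 ± 0.043 for Syp (edgeR adjusted p = 5.9e-10) and 0.86 ± 0.037 for Sv2a (edgeR adjusted p = 7.5e-11), or 1.77-fold and 1.82-fold. Reads of Syp carry a limit, since 16.8% of its exon bases overlap the gene Gm14703 on the opposite strand and the reads did not separate strands, with 49.8% to 49.9% on the reverse strand in every library.

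The synapsin genes, whose products tether vesicles to each other and to the cytoskeleton, did not pass the test between CX3 and CTR and rose in DAT. Syn1 (ENSMUSG00000037217.15, chrX:20860511-20921004, minus strand) read 126, 126 and 129 CPM in CTR, 119, 125 and 119 in CX3, and 388, 289 and 362 in DAT. Syn2 (ENSMUSG00000009394.13, chr6:115134902-115282006, plus strand) read 176, 174 and 176 CPM in CTR, 170, 174 and 172 in CX3, and 340, 320 and 337 in DAT. The CX3 values of both genes lay just under those of CTR, by log2 fold changes of -0.07 (95% interval -0.25 to 0.11, edgeR adjusted p = 0.57) for Syn1 and -0.03 (-0.12 to 0.06, edgeR adjusted p = 0.63) for Syn2. DAT libraries stood far above both groups. Syn1 rose by 1.45 ± 0.084 on the log2 scale (SE), a fold of 2.73 (edgeR adjusted p = 8.1e-09), and Syn2 by 0.92 ± 0.040, a fold of 1.89 (edgeR adjusted p = 8.2e-11). Syn1 had both the highest fold of the set and the widest spread, a coefficient of variation of 14.9% over the DAT libraries against 1.39% in CTR, and DAT B reached 0.769 of the mean of the other DAT libraries. Without DAT B the log2 fold change of Syn1 was 1.56.

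The promoter of Syn1 is widely used to confine transgenes to neurons, and the promoters of the genes that split most clearly between the groups are shown with it. RefSeq promoters (build GRCm38.p6) run from 250 bases before to 50 bases after a start site, and 7 of the 9 genes had at least 1. Capitals mark 3 motifs searched on both strands. These are an RE1-type site (TTCAGCACC, any 2 letters, then GGACAG, with at most 2 differences), which the repressor REST binds to keep neuronal genes silent outside neurons, the palindromic cyclic AMP response element TGACGTCA, and the GC box GGGCGG. The TATA box TATAAA was also searched and was found in 0 of the 7 genes. The first sequence is chrX:20920869-20921168, minus strand, the second chr5:108549978-108550277, minus strand, and the third chr3:96180977-96181276, plus strand.
Syn1: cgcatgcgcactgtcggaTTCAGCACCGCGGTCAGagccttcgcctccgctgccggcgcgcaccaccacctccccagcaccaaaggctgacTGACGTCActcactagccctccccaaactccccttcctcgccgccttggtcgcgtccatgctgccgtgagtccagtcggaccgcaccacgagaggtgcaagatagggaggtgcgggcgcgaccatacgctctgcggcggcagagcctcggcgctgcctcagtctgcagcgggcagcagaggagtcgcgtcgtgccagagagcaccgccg
Cplx1: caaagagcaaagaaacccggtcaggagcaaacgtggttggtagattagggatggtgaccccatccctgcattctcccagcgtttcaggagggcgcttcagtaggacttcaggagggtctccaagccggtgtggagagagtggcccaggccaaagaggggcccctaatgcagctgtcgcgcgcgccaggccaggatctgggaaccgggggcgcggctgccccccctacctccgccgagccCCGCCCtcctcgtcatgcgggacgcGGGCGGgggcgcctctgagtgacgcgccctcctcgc
Sv2a: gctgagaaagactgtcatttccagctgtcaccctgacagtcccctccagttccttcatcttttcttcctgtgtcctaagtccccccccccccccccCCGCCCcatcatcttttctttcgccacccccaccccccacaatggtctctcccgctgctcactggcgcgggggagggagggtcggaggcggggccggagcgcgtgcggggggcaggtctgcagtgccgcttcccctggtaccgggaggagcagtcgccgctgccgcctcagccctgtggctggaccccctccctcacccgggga
In Syn1 the RE1-type site, with 1 difference, starts 232 bases before the start site, and the cyclic AMP response element starts 159 bases before it. Among 32851 RefSeq mouse promoters of this length 0.143% hold such an RE1-type site and 1.79% hold the cyclic AMP response element. Of the 7 genes with a promoter, Syn1 was the 1 with either motif in these windows. The GC box, held by 35.7% of all promoters, was in 6 of the 7, all but Syn1. The Cplx1, Sv2a and Syn1 windows held 67%, 68% and 68.3% G and C, against a median of 52.7% over all promoters. No motif here overlapped another in the printed windows, and a match describes letters only.

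Syt1 (ENSMUSG00000035864.14, chr10:108497650-109010982, minus strand), the calcium sensor of fast release, moved least in DAT. It read 620, 627 and 639 CPM in CTR, 565, 587 and 612 in CX3, and 841, 725 and 834 in DAT. Each CX3 library lay below each CTR library and each DAT library above. The CX3 difference of -0.10 on the log2 scale (95% interval -0.21 to 0.02) did not pass (edgeR adjusted p = 0.19). It did pass at -0.092 when the DAT libraries were left out of the fit (edgeR adjusted p = 0.0122) and at -0.090 when DAT B alone was left out (edgeR adjusted p = 0.0123). In DAT the rise was 0.35 ± 0.054 (SE, edgeR adjusted p = 5.1e-05), a fold of 1.27, with the sign turning to -0.16 when libraries were scaled to general neuron genes.

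The 3 SNARE genes parted in CX3. Snap25 (ENSMUSG00000027273.13, chr2:136713453-136782428, plus strand) was the most read gene of the set, at 1353, 1355 and 1379 CPM in CTR, 1772, 1788 and 1795 in CX3, and 2229, 2239 and 2222 in DAT. Vamp2 (ENSMUSG00000020894.16, chr11:69088490-69092384, plus strand) read 392, 397 and 396 CPM in CTR, 514, 509 and 489 in CX3, and 739, 751 and 725 in DAT. Both stepped up from CTR through CX3 to DAT with no overlap between groups, although scaling to general neuron genes put CX3 above DAT for Snap25 and level with it for Vamp2. In CX3 the log2 fold change was 0.39 ± 0.033 for Snap25 (SE, edgeR adjusted p = 5.9e-07) and 0.35 ± 0.038 for Vamp2 (edgeR adjusted p = 6e-06), or 1.31-fold and 1.28-fold. In DAT it was 0.71 ± 0.033 for Snap25 (edgeR adjusted p = 1.6e-10) and 0.90 ± 0.038 for Vamp2 (edgeR adjusted p = 5.3e-11), or 1.64-fold and 1.87-fold. Stx1a (ENSMUSG00000007207.10, chr5:135023482-135051100, plus strand) was the least read gene, at 595 to 1098 counts per library. It read 23.8, 21.5 and 22.7 CPM in CTR, 23.6, 20.7 and 23.0 in CX3, and 30.1, 29.9 and 30.2 in DAT. CTR and CX3 overlapped for Stx1a and DAT stood above both. Its CX3 difference was -0.01 (95% interval -0.14 to 0.12, edgeR adjusted p = 0.91), and its DAT rise of 0.41 ± 0.063 (SE, edgeR adjusted p = 4.8e-05), 1.33-fold, turned to -0.10 when libraries were scaled to general neuron genes.

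Cplx1 (ENSMUSG00000033615.9, chr5:108518554-108550024, minus strand) showed the largest rise of the set in CX3. It read 572, 580 and 577 CPM in CTR, 892, 861 and 848 in CX3, and 965, 975 and 985 in DAT. Every CX3 library lay well above CTR, and below DAT on this scale though not when libraries were scaled by size alone or to general neuron genes. The log2 fold change against CTR was 0.59 ± 0.037 in CX3 (SE, edgeR adjusted p = 2e-08) and 0.76 ± 0.037 in DAT (edgeR adjusted p = 2.3e-10), or 1.5-fold and 1.69-fold.

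**Figure D1:**
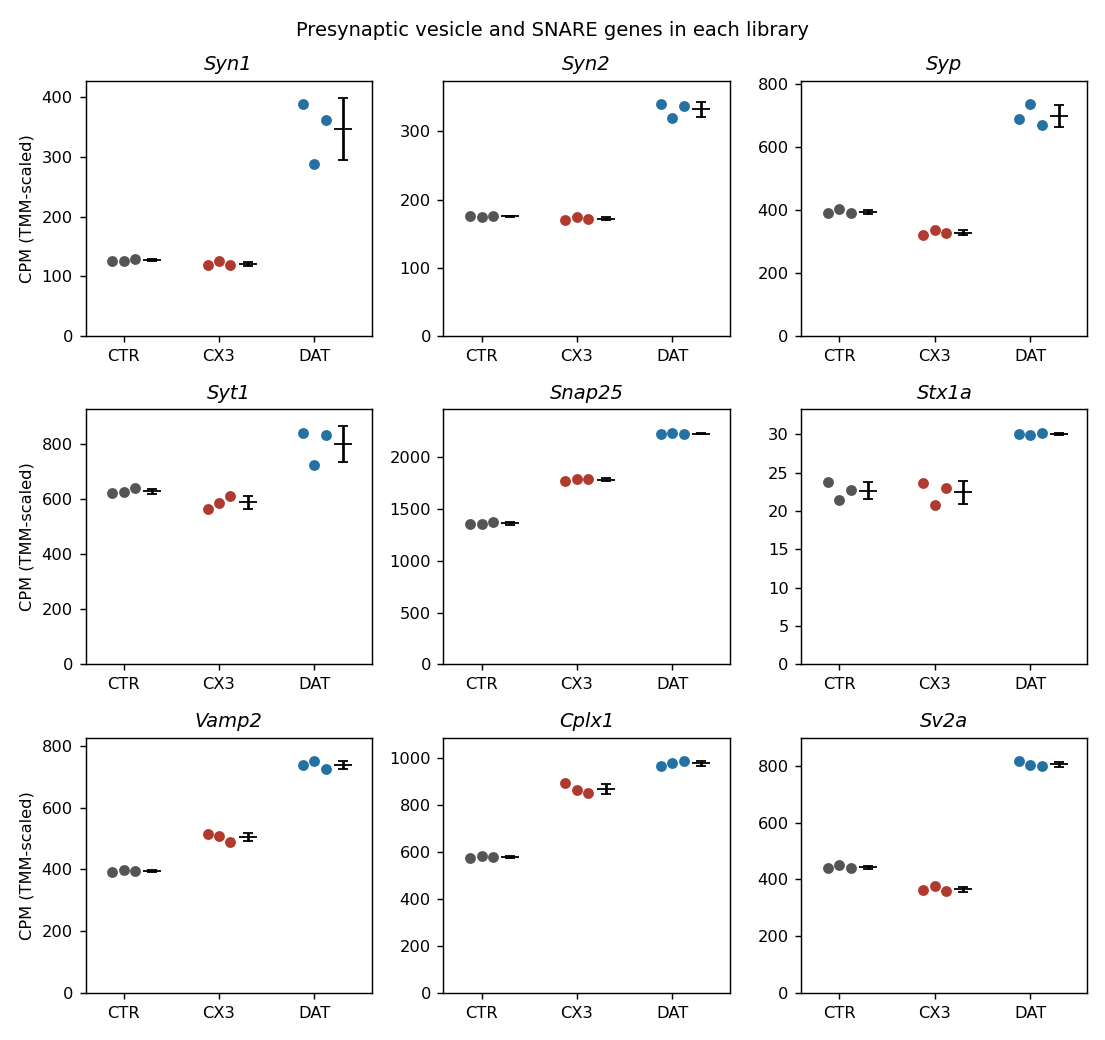
CPM of each of the 9 genes (y axis, from 0, scaled by TMM) in the 3 libraries of each labelled group (x axis); points are libraries A, B and C from left to right and the bar beside them is the mean with its SD. DAT libraries lie above the others for every gene on this scale, Cplx1, Snap25 and Vamp2 step up in CX3, and the Syn1 value of DAT B sits at 289 CPM, below 388 and 362.

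In DAT against CTR the whole set was higher. All 9 genes were called higher and 0 lower at an adjusted p below 0.05, with a median log2 fold change of 0.83 and a range from 0.35 to 1.45, but scaling to general neuron genes left 7 called higher and turned Syt1 and Stx1a to values below 0 that were not called. Over all genes tested, 59.9% were called, 32% higher and 27.9% lower, with a median of -0.004. The DAT and CTR libraries did not overlap for any of the 9. This describes these genes only, since the share of all genes without such overlap was not counted. Summed over the set, CTR libraries held 4093 to 4148 CPM, CX3 4741 to 4777 and DAT 6866 to 7039. In a tissue block, more neurons and more of each RNA per neuron cannot be told apart. The differences of the DAT libraries in tissue markers, Rn7sk and reads outside genes run along the same groups, and their part was not tested. All 9 calls held when any 1 library was left out, DAT B included.

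CX3 against CTR, which by their labels share the Cre line and differ in the vector, split the set. Cplx1, Snap25 and Vamp2 rose, Syp and Sv2a fell, and Syn1, Syn2, Syt1 and Stx1a were not called. The 5 calls of 9 stand beside 30.5% of all genes tested, and the 3 higher and 2 lower beside 14% and 16.5%. The median of the set was -0.03, near the median of -0.003 over all genes. Ratios of reads within a library do not depend on how libraries are scaled, and a few, chosen after the values were seen, are given as descriptions. The ratio of Cplx1 to Sv2a reads was 1.3, 1.29 and 1.31 in CTR, 2.45, 2.29 and 2.36 in CX3, and 1.18, 1.21 and 1.23 in DAT. Snap25 to Syp read 3.47, 3.37 and 3.54 in CTR, 5.51, 5.31 and 5.51 in CX3, and 3.23, 3.05 and 3.33 in DAT. The CX3 libraries stood apart from both other groups in these ratios. Each sets a gene that rose in CX3 over a gene that fell there, so it restates those changes. Syp to Sv2a, by contrast, held at 0.888 ± 0.00602 in CTR, 0.896 ± 0.0125 in CX3 and 0.866 ± 0.0441 in DAT (SD, n = 3), with overlapping libraries.

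CX3 against DAT tests whether the groups with the Synuclein-expressing vector differed from each other and does not use the CTR libraries as a reference. These groups differ in Cre line and drug together, and these cannot be told apart. All 9 genes were called lower in CX3, with a median of -0.55 and a range from -1.52 to -0.17, but scaling to general neuron genes left 4 called lower and 2, Snap25 and Cplx1, called higher. Over all genes tested 58.9% were called, 27.6% higher and 31.3% lower, and the median was 0.010. Syn1 differed most, by -1.52 ± 0.084 (SE, edgeR adjusted p = 5.2e-09), followed by Sv2a at -1.14 ± 0.038 (edgeR adjusted p = 5.1e-12), Syp at -1.09 ± 0.044 (edgeR adjusted p = 3.5e-11) and Syn2 at -0.95 ± 0.040 (edgeR adjusted p = 6.2e-11). Vamp2, Syt1, Stx1a and Snap25 lay between -0.55 and -0.32. Cplx1 differed least, at -0.17 ± 0.036 (SE, edgeR adjusted p = 0.00097), and read 0.024 when only the library size was scaled, 0.374 when scaled to general neuron genes and -0.053, not called, on forward-strand counts. The 4 genes that remained lower under the neuron scaling were Syn1, Syn2, Syp and Sv2a.

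**Figure D2:**
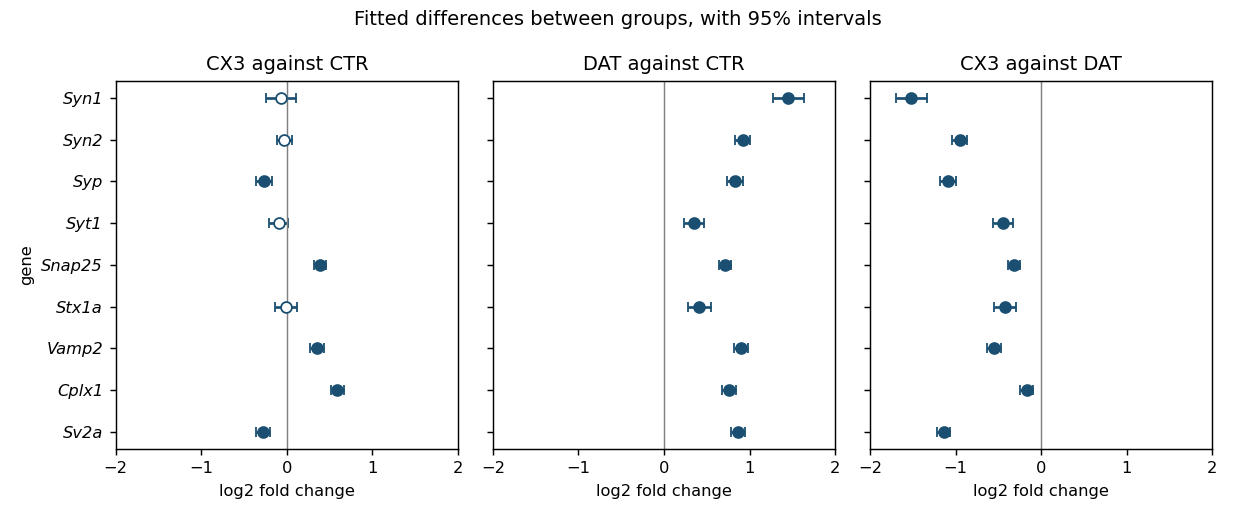
Log2 fold change (x axis) of each gene (y axis) in the 3 comparisons, with 95% intervals from the edgeR fit; filled points passed an adjusted p of 0.05 and open points did not. The 9 DAT against CTR values lie between 0.35 and 1.45, the 9 CX3 against DAT values between -1.52 and -0.17 (the DAT values of Syt1 and Stx1a, and the CX3 against DAT values of Syt1, Snap25, Stx1a and Cplx1, change sign when scaled to general neuron genes), and the CX3 against CTR values fall on both sides of 0.

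**Figure D3:**
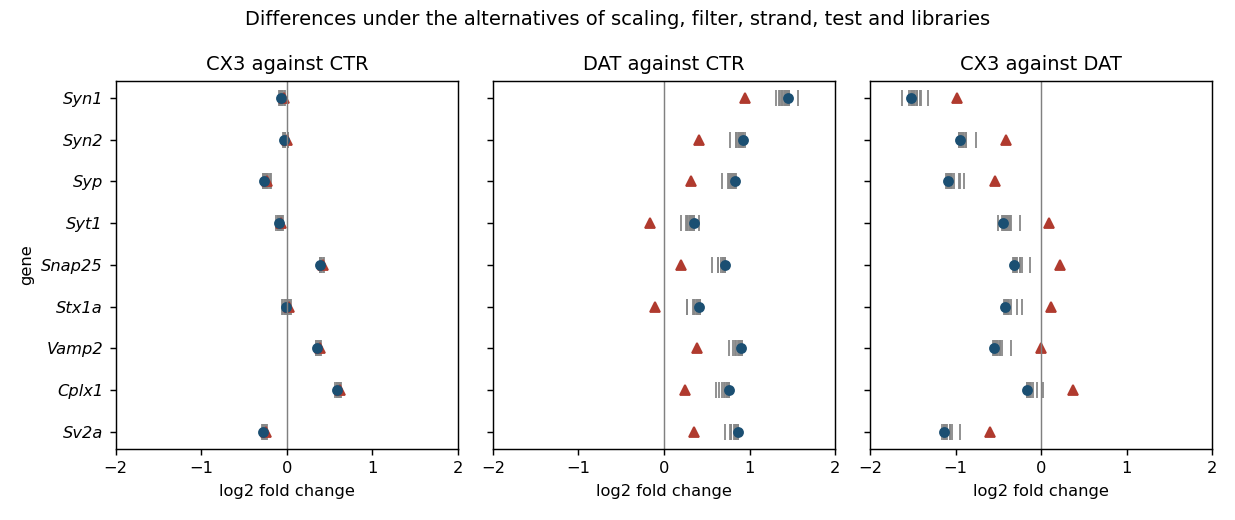
The same log2 fold changes (x axis) for each gene (y axis) as fitted (circles), scaled to general neuron genes (triangles) and under 19 other settings of scaling, filter, strand, test or libraries used (ticks). The triangles lie close to the circles in CX3 against CTR and lie nearer to 0 or across it in the comparisons with DAT.

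Per length, the order of the set was led by Cplx1 in every group. Levels per kb of exon were 263 ± 2.04 CPM per kb for Cplx1, 201 ± 2.16 for Snap25, 104 ± 0.681 for Vamp2 and 95.6 ± 1.12 for Sv2a in CTR (SD, n = 3). Syp at 75.5 ± 1.39 and Syt1 at 75.4 ± 1.1 CPM per kb came next with overlapping libraries, and Syn1 at 38.5 ± 0.534, Syn2 at 25 ± 0.149 and Stx1a at 8.5 ± 0.432 closed the order without overlap. In CX3 the same order held with Syt1, at 70.5 ± 2.84 CPM per kb, above Syp, at 62.9 ± 1.5. Cplx1 read 396 ± 10.3 CPM per kb there, Snap25 263 ± 1.68 and Vamp2 132 ± 3.44. In DAT Syn1 moved up to 105 ± 15.7 CPM per kb and overlapped Syt1 at 95.9 ± 7.8, while Cplx1 reached 445 ± 4.43 and Stx1a remained last at 11.3 ± 0.0586.

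Members of these families can stand in for one another in different neurons, so 6 of the genes were also read, each as a share of its family's reads per kb within a library. Which groups stood apart differed by family. Syt1 made up 85.5% ± 0.199 of Syt1 and Syt2 in CTR, 82.1% ± 0.429 in CX3 and 71.1% ± 0.181 in DAT (SD, n = 3), without overlap. Syt2, the calcium sensor used by many fast hindbrain and spinal synapses, rose in both groups, by 0.27 in CX3 (edgeR adjusted p = 0.0018) and by 1.61 in DAT (edgeR adjusted p = 6.8e-12). The summed hindbrain and pons list stood highest in DAT as well, and a link to Syt2 was not tested. Sv2a held 86% ± 0.179 of the SV2 reads per kb in CTR, 79.5% ± 0.661 in CX3 and 85.8% ± 0.639 in DAT, so CX3 lay apart while CTR and DAT overlapped. Sv2b rose by 0.40 in CX3 (edgeR adjusted p = 4.5e-06) and Sv2c by 0.38 (edgeR adjusted p = 0.0026), while Sv2a fell. Syn1 made up 60.1% ± 0.224, 59.6% ± 0.364 and 68.3% ± 2.6 of the synapsin reads per kb in CTR, CX3 and DAT. Cplx1 as a share of Cplx1 and Cplx2 was higher in every CX3 library, at 81.2% ± 0.261, 84.2% ± 0.473 and 81.5% ± 0.306, with CTR and DAT overlapping. Vamp2 as a share of Vamp2 and Vamp1 read 72.4% ± 0.304, 71.7% ± 0.758 and 75.4% ± 0.843, with CTR and CX3 overlapping. Snap25 outweighed Snap23, the relative used outside neurons, at 96.3% ± 0.198, 97.4% ± 0.0988 and 98.7% ± 0.0719, without overlap between any groups.

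**Figure D4:**
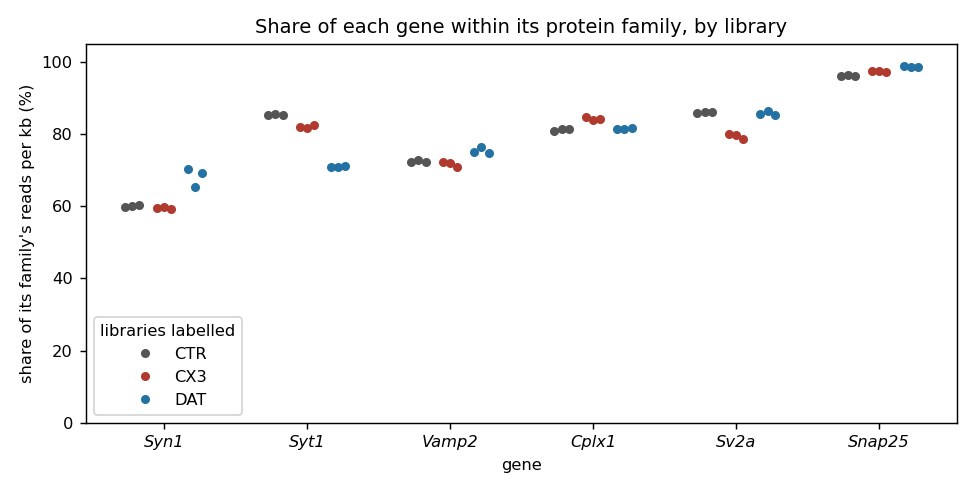
Share of a gene in the summed reads per kb of its family (y axis, %) in each library, coloured by labelled group, for 6 of the 9 genes (x axis). Syt1 falls from about 85.5% in CTR to 71.1% in DAT, and Sv2a is lower in CX3 at 79.5%.

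The close paralogs followed the set in DAT and divided in CX3. Of 18 listed, 17 were tested, Cplx4 being too low. In DAT 14 were higher and 2 lower, with a median of 0.68. The 2 that fell were Snap23 (-0.85, edgeR adjusted p = 3.8e-08) and Vamp3 (-0.36, edgeR adjusted p = 0.00019), which serve fusion in cells other than neurons, and Cplx3, of retina and some brain neurons, read 0.20 and was not called. Apart from Syt2, the largest rises in DAT among these were Sv2c at 1.23 and Syngr1, a synaptophysin relative, at 0.96. In CX3 7 were higher, 6 lower and 4 not called, with a median of 0.05. Those that rose were Cplx3 (0.52), Vamp1 (0.41), Sv2b (0.40), Sv2c (0.38), Cplx2 (0.29), Syt2 (0.27) and Syngr1 (0.14). Those that fell were Syt10 (-0.67), Syn3 (-0.45), Syt5 (-0.38), Syt6 (-0.33), Synpr (-0.31) and Snap23 (-0.17), and Syngr3, Syt3, Syt9 and Vamp3 read 0.09, -0.04, 0.05 and -0.05 without passing. Within the complexin and synaptobrevin families the member and its neuronal relative that were called in CX3 all rose, and within the SV2 family they moved in opposite directions.

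Genes that act with the set were read from 4 further lists. Of 29 priming, docking and SNARE partners, 26 were higher and 2 lower in DAT (median 0.53), and 10 higher and 4 lower in CX3 (median 0.07). Nsf, the ATPase that takes spent SNARE complexes apart, stood at 553 ± 1.67 CPM in CTR, 443 ± 11.9 in CX3 and 1034 ± 43.5 in DAT (SD, n = 3), a pattern like that of Syp and Sv2a. It fell by 0.32 on the log2 scale in CX3 (edgeR adjusted p = 3.6e-05) and rose by 0.90 in DAT (edgeR adjusted p = 1.3e-10). Syt7, the slow calcium sensor, and Rab3c, a vesicle GTPase, rose in CX3 by 0.49 (edgeR adjusted p = 6.6e-06) and 0.45 (edgeR adjusted p = 1.4e-06), and Rab3b, another vesicle GTPase, fell by 0.69 (edgeR adjusted p = 5.6e-06). Among 22 genes of endocytosis and vesicle recycling, 18 were higher and 2 lower in DAT (median 0.48), but in CX3 1 was higher and 9 lower (median -0.08). Hspa8, the chaperone that strips clathrin coats and has many other clients, fell in both, by 0.66 in CX3 (edgeR adjusted p = 2e-09) and by 0.31 in DAT (edgeR adjusted p = 1.7e-06). Ap2b1, a subunit of the clathrin adaptor, fell by 0.34 in CX3 (edgeR adjusted p = 5.1e-05), and Sh3gl2, endophilin, rose by 0.16 (edgeR adjusted p = 0.017). CX3 against DAT counted 3 partners higher and 21 lower (median -0.46) and 0 recycling genes higher and 19 lower (median -0.44).

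Transporters that load vesicles differ by transmitter and so by the kind of neuron. Of 7 listed genes, which include the glycine transporter Slc6a5 of the plasma membrane, 4 rose and 2 fell in CX3 (median 0.58), and 6 rose in DAT (median 0.91). Slc17a7, the glutamate transporter of cortical and cerebellar granule neurons, stood at 37 ± 1.5 CPM in CTR, 70.2 ± 2.03 in CX3 and 160 ± 12.6 in DAT, and Slc32a1, the GABA and glycine transporter, at 78.6 ± 2.48, 66.9 ± 4.12 and 192 ± 5.19 (SD, n = 3). In DAT these rose by 2.12 (edgeR adjusted p = 8.1e-13) and 1.29 (edgeR adjusted p = 3.1e-11) on the log2 scale. Slc17a6, the glutamate transporter of the thalamus and brain stem, stood at 300 ± 1.81, 273 ± 9.58 and 313 ± 0.55 CPM, and its DAT difference of 0.06 did not pass (edgeR adjusted p = 0.22). Slc18a2, which loads dopamine, was highest in CX3 at 114 ± 3.96 CPM against 76 ± 1.04 in CTR and 82.4 ± 0.56 in DAT. Of 21 dopaminergic neuron markers 12 were higher and 0 lower in CX3 (median 0.28), and 6 were higher and 5 lower in DAT (median 0.05), beside 9 of 9 vesicle genes higher in DAT.

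Most neuronal genes outside the presynapse were also higher in DAT. Of 26 general neuron genes 23 were higher and 1, Meg3, lower (median 0.54), and of 28 postsynaptic genes 22 were higher and 1 lower (median 0.52). The set's median of 0.83 lay above both. In CX3 8 general neuron genes were higher and 5 lower (median 0.03), and 11 postsynaptic genes were higher and 3 lower (median 0.08), against 3 and 2 of the 9. The postsynaptic scaffold genes Shank3 and Dlgap3 rose there by 0.96 (edgeR adjusted p = 3.5e-07) and 0.72 (edgeR adjusted p = 2e-08). Among glial, vascular and thalamus lists in DAT against CTR, 2 of 10 oligodendrocyte markers were higher and 4 lower, 2 of 10 astrocyte markers higher and 5 lower, 7 of 10 endothelial markers higher and 3 lower (median 0.51), and 5 of 8 thalamus markers higher and 1 lower. Scaling to the general neuron genes shifts the median of all genes to -0.512 in DAT against CTR and to 0.549 in CX3 against DAT, and the share of calls that were higher from 53.4% to 10.8% and from 46.8% to 89.3%. Scaling by library size alone shifts those medians to -0.151 and 0.204 and those shares to 37.8% and 66.8%, and in CX3 against CTR it moved the share from 46% to 59%.

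**Figure D5:**
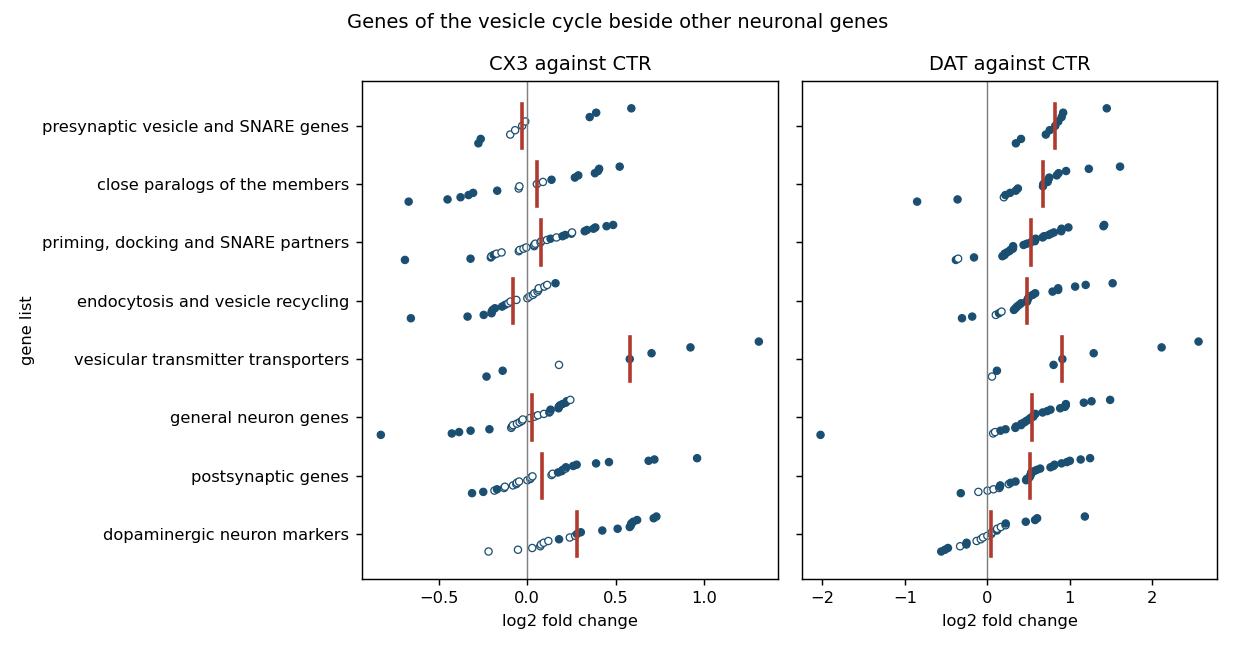
Log2 fold change (x axis) of each tested gene in 8 lists (y axis) in CX3 and in DAT against CTR; filled points passed an adjusted p of 0.05 and red bars are medians. In DAT the median of the presynaptic vesicle and SNARE genes is 0.83, beside 0.54 for general neuron genes and 0.05 for dopaminergic neuron markers (scaling to general neuron genes turns 2 of the 9 below 0), and in CX3 it is -0.03 with genes on both sides.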

How the data were processed

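Bulk RNA of nigral tissue was sequenced in 9 libraries, grouped by their labels. Per the submitters' processing notes and the methods, the authors trimmed reads with Trimmomatic, aligned them with STAR to mm10 and named featureCounts, while the deposited layout is that of STAR's own gene counts. The authors deposited read counts per gene without normalization, in 1 unstranded column and 2 columns by strand. The kit was a stranded mRNA kit with 76-base reads, but the strand columns held nearly equal totals, so the unstranded column was analysed. Reads that overlapped several genes (5.71% to 7.45%) and reads outside genes were left out.

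Counts were scaled by TMM and tested with edgeR 4.0.16 (quasi-likelihood test, 1 fit over all 9 libraries, group as the only term, genes kept by filterByExpr) in R 4.3.3, with Benjamini-Hochberg adjustment over 20892 genes. Calls are at an adjusted p below 0.05. CPM and reads per kb of union exon were made from the same scaling. The fit was tested on simulated data, in which a small part of the genes changed in CX3 alone, with rises and falls in equal number. Such data do not test the choice of scaling. Alternatives were other scalings, filters of at least 1 count and of at least 10 counts in every library, DESeq2 1.42.0, each strand, only the groups compared, a replicate block, a 1.2-fold threshold (glmTreat) and leaving out each library. The deviations of libraries with the same letter correlated at -0.16 to 0.0398, and those of libraries with different letters at -0.124 to 0.159. No pairing by letter was seen, but 3 libraries per group cannot exclude it.

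All 9 genes are described. From 19 further lists of genes their counts and medians are given, and genes are named as all close paralogs and, per list, up to 2 called genes with the largest rise and up to 2 with the largest fall in CX3 against CTR, chiefly in the lists closest to the set. Slc6a3, Th, Cx3cr1 and genes whose values set off a marker list or a transmitter are also named. The genes and lists were chosen with earlier results of these data known. Tables and plots used Python 3.11.15 with pandas 2.3.3, scipy 1.17.1 and matplotlib 3.10.9. The allele carried by the vector and 1 further gene are not reported here, and the single-cell libraries and other assays of the study were not used here.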

Additional observations from a re-analysis of the deposited data

Results flagged for a closer look

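Each of the 9 genes differed between CX3 and DAT by the edgeR test of CX3 against DAT given above. The CTR libraries cancel in the difference below, so these are the same values and not a separate result. The log2 difference of CX3 from CTR minus that of DAT from CTR was -1.52 for Syn1, -0.95 for Syn2, -1.09 for Syp, -0.44 for Syt1, -0.32 for Snap25, -0.42 for Stx1a, -0.55 for Vamp2, -0.17 for Cplx1 and -1.14 for Sv2a. All 9 were called lower in CX3, beside 31.3% of all genes called lower, and scaling to general neuron genes turned Syt1, Snap25, Stx1a and Cplx1 above 0.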

How the results depend on the processing

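Of 540 values of the 9 genes under 20 alternatives in 3 comparisons, 516 kept their direction and their side of the threshold, 6 no longer passed, 2 newly passed and 16 changed sign. With the 1.2-fold threshold 1768 genes were called in CX3 against CTR, 8212 in DAT against CTR and 7975 in CX3 against DAT, and 3 of the 9 in the first (Syp at -0.263 and Sv2a at -0.277 no longer passed), 8 in the second (Syt1 at 0.348, adjusted p = 0.0508, no longer passed) and 8 in the third (without Cplx1 at -0.170), fewer because the test asks for a larger change. Leaving out 1 library gave 4668 to 8610, 11272 to 13405 and 11265 to 13284 genes, with 5 to 6, 9 and 9 of the set.

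Sign changes in CX3 against CTR all had values that were not called. Syn2 read 0.018 with library size alone, 0.002 scaled to general neuron genes and 0.008 with at least 1 count. Stx1a read 0.036, 0.020 and 0.026 under those settings, 0.006 on forward-strand counts, and -0.052 to 0.043 with 1 library left out (0.022 without CTR A, 0.043 without CX3 B). Scaling to general neuron genes gave -0.160 for Syt1 and -0.100 for Stx1a in DAT against CTR, and in CX3 against DAT 0.095 for Syt1, 0.222 for Snap25, 0.119 for Stx1a, 0.374 for Cplx1 and -0.006, no longer called, for Vamp2. With library size alone Cplx1 read 0.024 there, and on forward-strand counts -0.053. The cause was not tested. The replicate block gave 5849, 12147 and 11965 genes called and changed no call of the 9, and not every library correlated best with its own letter. Depth limits Stx1a most, at 595 to 1098 reads per library.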
